A study of Rattus norvegicus with 8 samples.

Results

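The genes described here encode the enzymes and the carrier that place acetyl-CoA and NADPH, the carbon and the reducing power of lipid synthesis, in the cytosol of the liver cell. Members were taken by name: 8 names were listed (Acly, Acss2, Aacs, Slc25a1, Me1, G6pdx, Pgd and Idh1), and a row of the deposited gene table belonged to the set where its gene name was the same. Of these, 7 had a row, 1 each, among the 32545 genes of the table. All 7 were also among the 14148 genes with enough counts to be tested. Pgd, whose product catalyses the second NADPH-forming step of the pentose phosphate pathway, was not analysed here.

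The livers came from wild type Sprague-Dawley rats, an outbred laboratory strain, given as about 22 weeks old. Of the sequenced libraries, 5 were from rats on a high fat diet (HFD) with 41% of calories as fat, 43% as carbohydrate and 17% as protein, and 3 were from rats on regular chow (normal diet, ND) with 8.5% fat, 59.6% carbohydrate and 20.3% protein. Each diet was given to 12 randomly assigned rats, and feeding is stated as 24 weeks, which is longer than the stated age and was not resolved. By the stated shares the HFD held more fat, less carbohydrate and less protein than the chow, so the effects of these differences cannot be told apart.

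In hepatocytes, citrate made in mitochondria leaves through the citrate carrier and is split in the cytosol into acetyl-CoA and oxaloacetate. Acetate and acetoacetate can also be activated in the cytosol for the same use. The NADPH that fatty acid and sterol synthesis consume comes from the pentose phosphate pathway, from malic enzyme and from cytosolic isocitrate dehydrogenase, and in rodent liver many genes of this supply are known targets of SREBP-1c and ChREBP, transcription factors that respond to insulin and carbohydrate.

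Depth, as the total of a library's gene counts, ran between 13293396 and 34454396 on the HFD and between 12678616 and 36152937 on the ND. The libraries parted into a deeper set (HFD-1, HFD-2, ND-1 and ND-3, each with at least 30501673 counts) and a shallower set (HFD-3, HFD-4, HFD-5 and ND-2, each with at most 18401981). ND-2 was thus the only shallow ND library, and it was also the highest of all 8 libraries in 6 of the 7 genes, all but Idh1, so values without it are given for the members, their ratios and lncRNAs, and the pathway lists. The labels number the libraries within a diet without stating that each was a separate animal, so the p-values measure the spread between these samples, which may in part be technical. No pair of libraries of 1 diet was alike within sampling noise: the chi-square per degree of freedom was 25.2 or more.

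All 7 genes had a lower fitted value on the HFD than on the ND, and with all libraries 5 differed by more than the other 2. Acly, Aacs, G6pdx, Acss2 and Me1 were lower by between 2.72-fold and 5.33-fold in the fit, while Slc25a1 and Idh1 were lower by 1.30-fold and 1.11-fold. In 5 of 7 genes, all but Slc25a1 and Idh1, every HFD library lay below every ND library in FPKM (fragments per kilobase of transcript, scaled to the size of the library, a level that can be set beside that of other genes). Of all tested genes, 1.65% had this pattern. The same 5 genes were lower by at least 2-fold, against 1.19% of all tested genes. Without ND-2, 4 were lower by at least 2-fold, all but Me1, against 1.47% of the genes tested there. Me1 then had a log2 fold change of -0.62, and in the deeper libraries alone one of -0.51, close to the -0.42 of Slc25a1 there. With all libraries the same 5 were lower at an unadjusted p under 0.05, against 2.83%. The median log2 fold change was -1.78 over the 7 genes and 0.01 over all tested genes, of which 6900 were lower. The members were chosen with earlier results of these data known. The shares over all tested genes, here and below, therefore describe the set and do not test it.

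None of the 7 passed after adjustment over all genes. By edgeR's quasi-likelihood test 0 of 7 had a Benjamini-Hochberg adjusted p under 0.05, where 1 gene of 14148, or 0.00707%, passed in the lower direction. The smallest adjusted p among the 7 were 0.0689 for G6pdx and 0.0732 for Acss2, which ranked 4th and 7th of all tested genes by p. DESeq2, another count model, called 5 of 7 lower (Acly, Acss2, Aacs, Me1 and G6pdx), against 0.481% of all tested genes, and limma on log2(FPKM + 1) called 0 of 7. With the depth set as a covariate edgeR called 2 of 7 lower (Acss2 with an adjusted p of 0.0233 and G6pdx with 0.00872), against 0.0283% of all tested genes. Without ND-2 the same 5 genes remained lower at an unadjusted p under 0.05, against 2.55% of the genes tested there, and edgeR called 0 of 7. The 7 genes are thus not shown to differ at the adjusted threshold by the main test, and whether 5 of them pass depends on the count model.

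**Figure D1:**
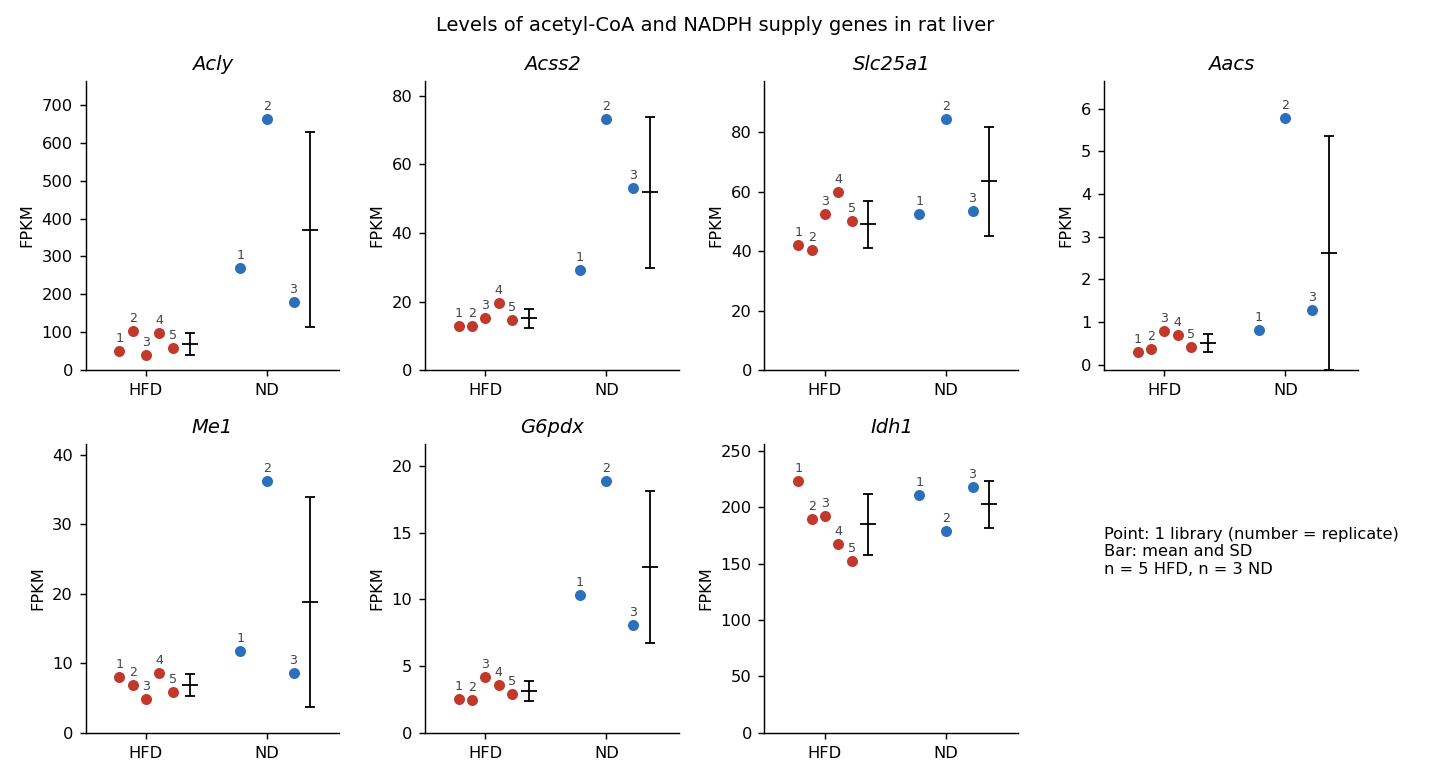
Level of each gene in FPKM (vertical axes, each on its own scale), with 1 point per library numbered by replicate, HFD in red on the left and ND in blue on the right, and bars for the mean and SD (n = 5 HFD and n = 3 ND). ND-2 is the highest point in every panel but Idh1, and the groups overlap in Slc25a1 and Idh1.

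Promoter sequences were found for 6 of the 7 genes, all but G6pdx, in a table of RefSeq promoters on the rat assembly GRCr8 (250 bases before to 50 bases after the start). They are shown because 5 of the 7 genes separated the diets in the same direction, and 4 are printed: Acly and Acss2, which make cytosolic acetyl-CoA and whose diets did not overlap, and Slc25a1 and Idh1, whose diets did. Each is written 5′ to 3′ on the gene's own strand, and capitals mark matches, on either strand, to 5 short motifs: the sterol regulatory element core CACNCCAC, the NF-Y box CCAAT, the E-box CACGTG, the GC box GGGCGG and the antioxidant response element core TGACNNNGC. The windows are chr10:85963582-85963881 (minus strand) for Acly, chr3:164464453-164464752 (plus strand) for Acss2, chr11:96559804-96560103 (plus strand) for Slc25a1 and chr9:74049425-74049724 (minus strand) for Idh1.
Acly: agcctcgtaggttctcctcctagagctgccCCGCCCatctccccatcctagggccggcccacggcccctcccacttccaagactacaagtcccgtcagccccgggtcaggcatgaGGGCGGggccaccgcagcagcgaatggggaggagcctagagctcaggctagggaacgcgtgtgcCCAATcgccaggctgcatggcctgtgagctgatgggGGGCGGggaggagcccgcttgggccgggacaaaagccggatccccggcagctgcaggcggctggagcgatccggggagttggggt
Acss2: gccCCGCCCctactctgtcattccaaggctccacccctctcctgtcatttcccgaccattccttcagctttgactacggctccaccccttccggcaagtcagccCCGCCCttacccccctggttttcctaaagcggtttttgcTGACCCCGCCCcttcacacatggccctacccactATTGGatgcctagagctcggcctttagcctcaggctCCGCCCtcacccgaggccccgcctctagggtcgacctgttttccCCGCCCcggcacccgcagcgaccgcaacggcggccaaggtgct
Slc25a1: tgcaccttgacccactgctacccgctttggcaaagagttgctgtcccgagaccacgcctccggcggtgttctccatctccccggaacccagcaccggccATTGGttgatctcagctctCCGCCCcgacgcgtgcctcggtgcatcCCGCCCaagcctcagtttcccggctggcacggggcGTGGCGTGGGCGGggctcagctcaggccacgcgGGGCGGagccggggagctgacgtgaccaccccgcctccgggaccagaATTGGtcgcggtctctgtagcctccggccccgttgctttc
Idh1: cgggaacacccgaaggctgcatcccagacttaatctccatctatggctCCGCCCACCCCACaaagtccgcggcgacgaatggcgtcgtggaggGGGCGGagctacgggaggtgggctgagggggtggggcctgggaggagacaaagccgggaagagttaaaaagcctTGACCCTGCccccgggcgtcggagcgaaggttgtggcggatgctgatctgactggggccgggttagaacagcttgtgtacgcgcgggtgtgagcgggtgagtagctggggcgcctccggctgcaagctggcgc

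The Acly window held 1 NF-Y box and 3 GC boxes. The Acss2 window held 1 NF-Y box, 5 GC boxes and 1 antioxidant response element core, the last overlapping a GC box. The Slc25a1 window held 2 NF-Y boxes, 4 GC boxes and 1 sterol regulatory element core that overlaps a GC box, and the Idh1 window held 2 GC boxes, 1 antioxidant response element core and 1 sterol regulatory element core, which again overlaps a GC box. Of the windows not printed, Me1 had 5 GC boxes and 1 antioxidant response element core, and Aacs had 1 antioxidant response element core. None of the 6 windows held the E-box letters. Over all 33469 promoters of the table, 5.8% held the sterol regulatory element core, 37.5% the NF-Y box, 6.42% the E-box, 33.1% the GC box and 12.1% the antioxidant response element core. These are letter matches, not measured binding. The sterol regulatory element core was found in the windows of Slc25a1 and Idh1 and not in the other 4 windows. Only these exact letters in these short windows were searched, and G6pdx had no window. Whether any motif goes with the differences between the diets was not tested.

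Among the genes of acetyl-CoA supply, Acly (ATP citrate lyase, which splits cytosolic citrate; ENSRNOG00000016924, Rnor_6.0 chr10:88392248-88442845) had the widest span of levels in FPKM. It was at 49.5, 103, 39.7, 96.9 and 58.1 FPKM in HFD-1 to HFD-5, against 269, 663 and 179.8 FPKM in ND-1 to ND-3. The HFD libraries all lay below the lowest ND library, and ND-2 stood at 2.95 times the mean of the other ND libraries. The means were 69.5 ± 28.7 FPKM on the HFD and 371 ± 257 FPKM on the ND (SD, n = 5 and n = 3). Its log2 fold change was -2.41 ± 0.43 (SE; 95% interval -3.37 to -1.45), with an adjusted p of 0.118 by edgeR. Without ND-2 the log2 fold change was -1.75, with an adjusted p of 0.441, and DESeq2 gave an adjusted p of 4.77e-06 over all 8 libraries. The HFD libraries themselves differed by 2.59-fold from lowest to highest, with HFD-2 and HFD-4 above the other 3.

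Acss2 (cytosolic acetyl-CoA synthetase, which activates acetate; ENSRNOG00000018755, chr3:151032952-151075856) was at 12.9, 12.9, 15.3, 19.7 and 14.6 FPKM in HFD-1 to HFD-5, against 29.3, 73.2 and 53.1 FPKM in ND-1 to ND-3. The HFD libraries were close together, with an SD of 18.5% of their mean, and all lay below ND-1, the lowest ND library. Means were 15.1 ± 2.79 FPKM on the HFD and 51.9 ± 22.0 FPKM on the ND (SD). The log2 fold change was -1.78 ± 0.24 (SE; 95% interval -2.33 to -1.23) with an adjusted p of 0.0732 by edgeR, and -1.49 without ND-2 (adjusted p = 0.187). It passed by DESeq2 (adjusted p = 5.63e-08) and by edgeR without ND-1 (adjusted p = 0.013). The small RNA gene SNORA18 lies within its span and was listed at 0 FPKM in all 8 libraries.

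Aacs (acetoacetyl-CoA synthetase, which activates the ketone body acetoacetate for lipid synthesis; ENSRNOG00000000967, chr12:36512393-36555694) was the least abundant of the 7. Its levels were 0.282, 0.364, 0.778, 0.692 and 0.409 FPKM in HFD-1 to HFD-5, against 0.806, 5.78 and 1.27 FPKM in ND-1 to ND-3, from 24 to 234 counts per library. HFD-3 was just below ND-1, and ND-2 was at 5.56 times the mean of the other ND libraries. The diets differed by a log2 fold change of -2.37 ± 0.60 (SE; 95% interval -3.70 to -1.03), with an adjusted p of 0.361 by edgeR and 0.00808 by DESeq2. ND-2 carried much of this size: without it the log2 fold change was -1.12, with an adjusted p of 0.885.

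Slc25a1 (the mitochondrial citrate carrier; ENSRNOG00000038001, chr11:87204175-87207264) was at 42.1, 40.3, 52.4, 59.8 and 50.2 FPKM in HFD-1 to HFD-5, against 52.3, 84.4 and 53.5 FPKM in ND-1 to ND-3. The diets overlapped: HFD-3 and HFD-4 lay above ND-1, and HFD-4 also above ND-3. For this gene the log2 fold change was -0.38 ± 0.18 (SE; 95% interval -0.79 to 0.03), with an adjusted p of 0.930 by edgeR. This interval does not reach 2-fold lower and includes 0, and without ND-2 the log2 fold change was -0.16. In both depth sets the HFD mean of log2 counts scaled by library size was below the ND mean. The difference was 0.42 in the deeper set and 0.59 in the shallower set, which has 1 ND library. The overlap lay between the sets: within each set every HFD library was below every ND library in FPKM. With the depth set as a covariate the log2 fold change was -0.49 ± 0.08 (SE; unadjusted p = 0.000381 and adjusted p = 0.118 by edgeR).

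Because these 4 genes differed by unequal amounts, their shares of the summed FPKM differed too. Their sum was 104.8 to 177.1 FPKM in HFD libraries and 287.7 to 826.8 FPKM in ND libraries. Acly made up 36.7% to 65.8% of the sum on the HFD and 62.5% to 80.2% on the ND, with overlap. Slc25a1 made up 25.7% to 48.45% on the HFD and 10.2% to 18.6% on the ND, without overlap. Acss2 and Aacs had overlapping shares.

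The NADPH genes ranged from a clear separation of the diets to none. G6pdx (glucose-6-phosphate dehydrogenase, the first and rate-limiting step of the pentose phosphate pathway; ENSRNOG00000056728, chrX:156274800-156293926) was at 2.54, 2.48, 4.20, 3.55 and 2.88 FPKM in HFD-1 to HFD-5, against 10.4, 18.8 and 8.09 FPKM in ND-1 to ND-3. The highest HFD library, HFD-3, was well below the lowest ND library, ND-3, with no overlap. Means were 3.13 ± 0.737 FPKM on the HFD and 12.4 ± 5.66 FPKM on the ND (SD). G6pdx had a log2 fold change of -1.996 ± 0.265 (SE; 95% interval -2.59 to -1.40), with an adjusted p of 0.0689 by edgeR and 2.87e-08 by DESeq2. ND-2 was at 2.04 times the mean of the other ND libraries. By edgeR the log2 fold change was -1.62 without ND-2 (adjusted p = 0.117) and -2.22 without ND-3 (adjusted p = 0.0699). In the deeper set alone it was -1.95 (adjusted p = 0.129).

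Me1 (cytosolic malic enzyme, which makes NADPH as it turns malate into pyruvate; ENSRNOG00000009715, chr8:94256839-94368834) was at 8.06, 6.94, 4.82, 8.603 and 5.87 FPKM in HFD-1 to HFD-5, against 11.8, 36.1 and 8.605 FPKM in ND-1 to ND-3. The diets did not overlap, but HFD-4 and ND-3 were nearly equal, and ND-2 was at 3.54 times the mean of the other ND libraries. Me1 had a log2 fold change of -1.44 ± 0.39 (SE; 95% interval -2.32 to -0.56), with an adjusted p of 0.457 by edgeR and 0.0327 by DESeq2. Without ND-2 it was -0.62 (adjusted p = 0.885), and in the deeper set alone -0.51 (adjusted p = 0.675). The Me1 difference was thus much smaller without this 1 library.

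Idh1 (the NADP-dependent isocitrate dehydrogenase of cytosol and peroxisomes; ENSRNOG00000015020, chr9:71882105-71900044) was the most abundant of the NADPH genes in every library. It was at 223, 189.8, 192, 168 and 152 FPKM in HFD-1 to HFD-5, against 211, 179 and 218 FPKM in ND-1 to ND-3. HFD-1 was the highest library of all and HFD-5 the lowest, so the ND range lay within the HFD range. Idh1 had a log2 fold change of -0.15 ± 0.14 (SE; 95% interval -0.47 to 0.17), with an adjusted p of 0.993 by edgeR, and without ND-2 it was -0.26 (adjusted p = 0.905). Idh1 was the 1 gene of the set in which ND-2 was the lowest ND library.

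The summed FPKM of the 3 NADPH genes was 161.0 to 233.5 in HFD libraries and 233.3 to 234.5 in ND libraries. Idh1 made up 93.2% to 95.5% of this sum on the HFD and 76.5% to 92.9% on the ND. G6pdx made up 1.09% to 2.09% on the HFD and 3.45% to 8.06% on the ND, and Me1 2.39% to 4.79% on the HFD and 3.67% to 15.5% on the ND. The shares of Idh1 and G6pdx did not overlap between the diets, and those of Me1 did. These are shares of RNA, and enzyme amount and flux were not measured.

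**Figure D2:**
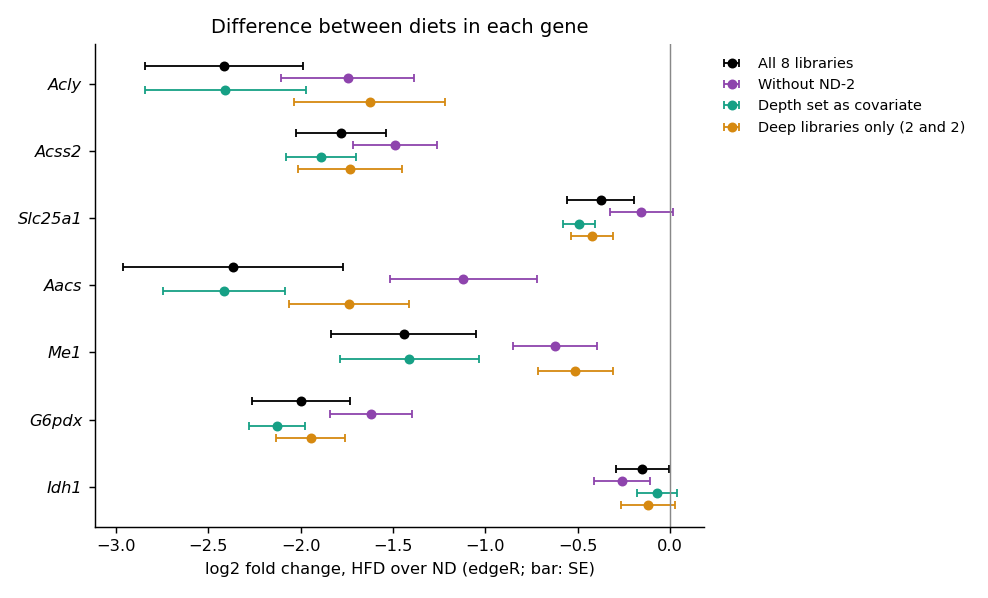
Log2 fold change of HFD over ND for each gene (horizontal axis, bars for the SE of edgeR's fit) with all 8 libraries, without ND-2, with the depth set as a covariate, and in the deeper libraries alone (2 HFD and 2 ND). Every value lies below 0, and without ND-2 Aacs and Me1 lie near -1.12 and -0.62 while Acss2 and G6pdx stay at -1.49 and -1.62.

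Splitting by depth kept the direction of all 7 genes and altered some sizes. Differences here are the HFD mean minus the ND mean of log2 counts scaled by library size. In the deeper set they were -1.69 for Acly, -1.67 for Acss2, -1.65 for Aacs and -1.92 for G6pdx, and -0.49 for Me1. In the shallower set, where ND-2 is the only ND library and no test was run, the differences were -3.39 for Acly, -2.10 for Acss2, -3.15 for Aacs, -2.36 for G6pdx and -2.47 for Me1. Idh1 differed by -0.12 and by -0.01 in the sets. Since ND-2 is alone in its set, the properties of that library and of shallow ND libraries cannot be told apart.

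Members were next set against the enzymes that run the same reaction in another compartment, as the ratio of their FPKM within each library. Acss2 over Acss1, the mitochondrial acetyl-CoA synthetase, was between 19.4 and 20.5 in HFD-1 to HFD-3, 30.8 in HFD-4 and 15.8 in HFD-5, against 58.7, 76.7 and 59.0 in ND-1 to ND-3. G6pdx over H6pd, the hexose-6-phosphate dehydrogenase of the endoplasmic reticulum, was 0.0817, 0.108, 0.0963, 0.0686 and 0.0612 in HFD-1 to HFD-5, against 0.272, 0.703 and 0.328 in ND-1 to ND-3. In both pairs every HFD ratio lay below every ND ratio. The mean log2 ratio was lower on the HFD by 1.63 for Acss2 over Acss1 and by 2.29 for G6pdx over H6pd, each with a 2-sided exact permutation p of 0.0357, the smallest that 56 arrangements allow, and of 0.0714 after adjustment over the 4 pairs. Neither passed after adjustment, and with only these pairs at the smallest p neither could have passed. Without ND-2 the differences were -1.50 and -1.88, each with an exact permutation p of 0.0952, the smallest that 5 against 2 libraries allow.

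The other pairs overlapped. Idh1 over Idh2, the mitochondrial NADP-dependent isocitrate dehydrogenase, was 3.88 to 5.51 on the HFD and 4.77 to 8.23 on the ND (exact permutation p = 0.143, adjusted 0.19), with a mean log2 difference of -0.47, or -0.70 without ND-2. The 4.77 is ND-2 alone, beside 7.07 in ND-1 and 8.23 in ND-3, so this overlap rests on that library. Without ND-2 the exact permutation p was 0.0952 (adjusted 0.127), as for the pairs above. Me1 over Me3, a mitochondrial malic enzyme, was 1.64 to 4.91 on the HFD and 3.23 to 10.7 on the ND (exact permutation p = 0.357, adjusted 0.357). The 10.7 is ND-2 alone, beside 3.3 in ND-1 and 3.23 in ND-3, and the mean log2 difference of -0.72 was -0.15 without ND-2. In level, Acss1 averaged 0.63 ± 0.13 FPKM on the HFD and 0.686 ± 0.249 FPKM on the ND, and H6pd 40.45 ± 12.1 FPKM on the HFD and 30.0 ± 7.28 FPKM on the ND (SD). Thus H6pd, not G6pdx, was the more abundant RNA of its pair in every library.

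**Figure D3:**
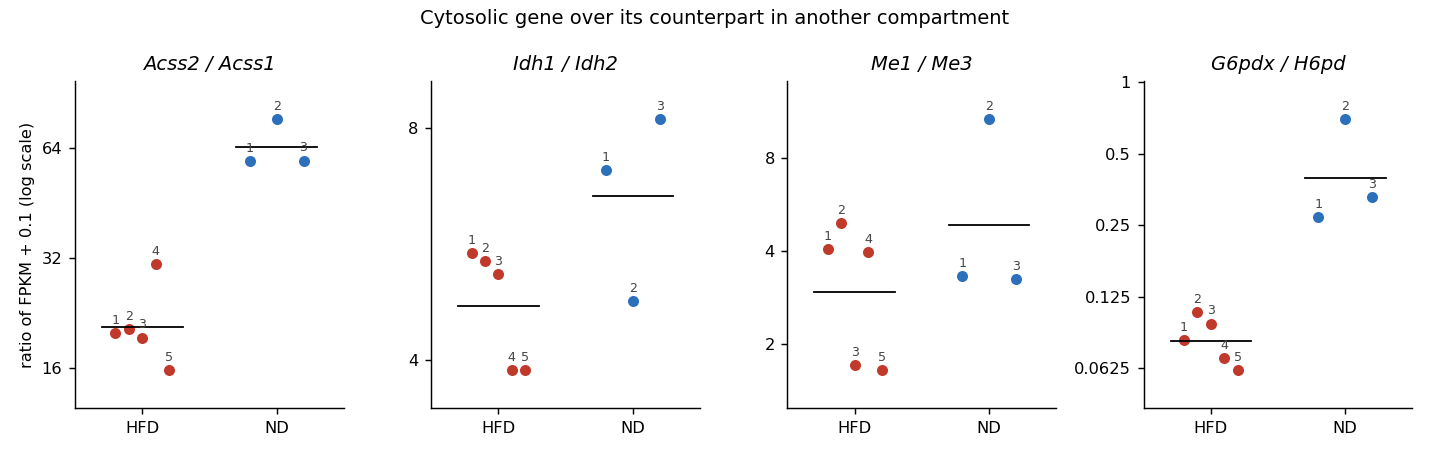
Ratio of each cytosolic gene's FPKM to that of its counterpart in another compartment (vertical axes, log scale, 0.1 FPKM added to both), 1 point per library, HFD left of ND, with lines at the mean log2 ratio. The HFD ratios of Acss2 over Acss1 (15.8 to 30.8) and of G6pdx over H6pd (0.0612 to 0.108) lie below all ND ratios, and the other pairs overlap.

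The genes around this supply were read from lists of the same pathways, and edgeR and limma each called 0 genes in each of the 6 lists described next. Of 17 tested genes of acetyl-CoA and citrate supply beside the members, 11 were lower and 6 higher in fitted value, with 3 lower and 1 higher at an unadjusted p under 0.05 and a median log2 fold change of -0.06. Without ND-2, 2 were lower and 0 higher at that p. Dlat, a subunit of pyruvate dehydrogenase, averaged 11.1 ± 2.26 FPKM on the HFD and 17.6 ± 4.88 FPKM on the ND (log2 fold change -0.67, adjusted p = 0.513 by edgeR, and -0.46 without ND-2). Mdh1, cytosolic malate dehydrogenase, averaged 178.9 ± 34.7 FPKM on the HFD and 273.5 ± 33.2 FPKM on the ND (log2 fold change -0.62, adjusted p = 0.517). Of 10 genes of the pentose phosphate pathway, 7 were lower and 3 higher, with 1 lower at an unadjusted p under 0.05 (0 without ND-2) and a median of -0.04. The lowest p was that of Tkt, the transketolase of the non-oxidative branch, with 87.0 ± 22.0 FPKM on the HFD and 137.0 ± 37.5 FPKM on the ND (log2 fold change -0.65, adjusted p = 0.709, and -0.46 without ND-2), followed by the ribose-5-phosphate isomerase gene Rpia (log2 fold change -0.36, adjusted p = 0.975). Of 11 other producers of NADPH or of NADP, 5 were lower and 6 higher, with 1 in each direction at an unadjusted p under 0.05, also without ND-2, and a median of 0.0047. Here Mthfd1, of folate metabolism, had a log2 fold change of -0.37 (adjusted p = 0.599), and Idh2 one of 0.32 (adjusted p = 0.836). DESeq2 called none of the genes of these 3 lists.

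Genes that use acetyl-CoA and NADPH in lipid synthesis had values like those of the 5 members. All 10 rows (9 genes, with Elovl6 on 2 rows) were lower in fitted value, 8 of them at an unadjusted p under 0.05 and 6 without ND-2, with a median log2 fold change of -1.92 (-1.55 without ND-2). DESeq2 called 4 lower. Acat2, the cytosolic acetyl-CoA acetyltransferase, averaged 2.36 ± 0.883 FPKM on the HFD and 10.45 ± 6.196 FPKM on the ND (log2 fold change -2.14, adjusted p = 0.118 by edgeR). Fasn, the fatty acid synthase, averaged 35.1 ± 22.55 FPKM on the HFD and 326 ± 234 FPKM on the ND (log2 fold change -3.20, adjusted p = 0.132). ND-2 raised this ND mean, which was 193.1 FPKM without it, and the log2 fold change was then -2.50.

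Of 8 rows of NADPH users in redox and detoxification, 6 were higher and 2 lower in fitted value, with 3 higher at an unadjusted p under 0.05 (2 without ND-2) and a median log2 fold change of 0.28. Of all tested genes, 2.88% were higher at that p. Akr7a3, an aldo-keto reductase that clears aldehydes, averaged 146.5 ± 48.7 FPKM on the HFD and 38.55 ± 12.7 FPKM on the ND (log2 fold change 1.915, adjusted p = 0.104 by edgeR). Gsr, glutathione reductase, averaged 46.5 ± 8.715 FPKM on the HFD and 35.9 ± 2.55 FPKM on the ND (log2 fold change 0.36, adjusted p = 0.838). Summed over the list, these users stood at 446 to 583 FPKM on the HFD and 253 to 335 FPKM on the ND, so the sums did not overlap. Akr7a3 made up much of the gap: without it the sums were 295.8 to 407 FPKM on the HFD and 224 to 289.7 FPKM on the ND. The diets overlapped in 6 of the 8 rows, so the sum does not stand for each gene of the list. DESeq2 called 1 of the 8 higher.

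Of 17 regulators and cofactors of lipogenic genes, 12 were lower and 5 higher, with 4 lower at an unadjusted p under 0.05 (2 without ND-2) and a median log2 fold change of -0.24, and DESeq2 called 1 lower. Insig1, which holds SREBP in the endoplasmic reticulum and is itself an SREBP target, averaged 101.3 ± 47.6 FPKM on the HFD and 274.7 ± 44.0 FPKM on the ND (log2 fold change -1.45, adjusted p = 0.356 by edgeR). Thrsp, a small protein of lipogenic tissues, averaged 742 ± 201 FPKM on the HFD and 1321 ± 359 FPKM on the ND (log2 fold change -0.84, adjusted p = 0.516). Srebf1, which encodes SREBP-1, had a log2 fold change of -0.84 (adjusted p = 0.836), or -0.45 without ND-2, and Mlxipl, which encodes ChREBP, one of -0.24 (adjusted p = 0.993), or -0.05 without ND-2.

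**Figure D4:**
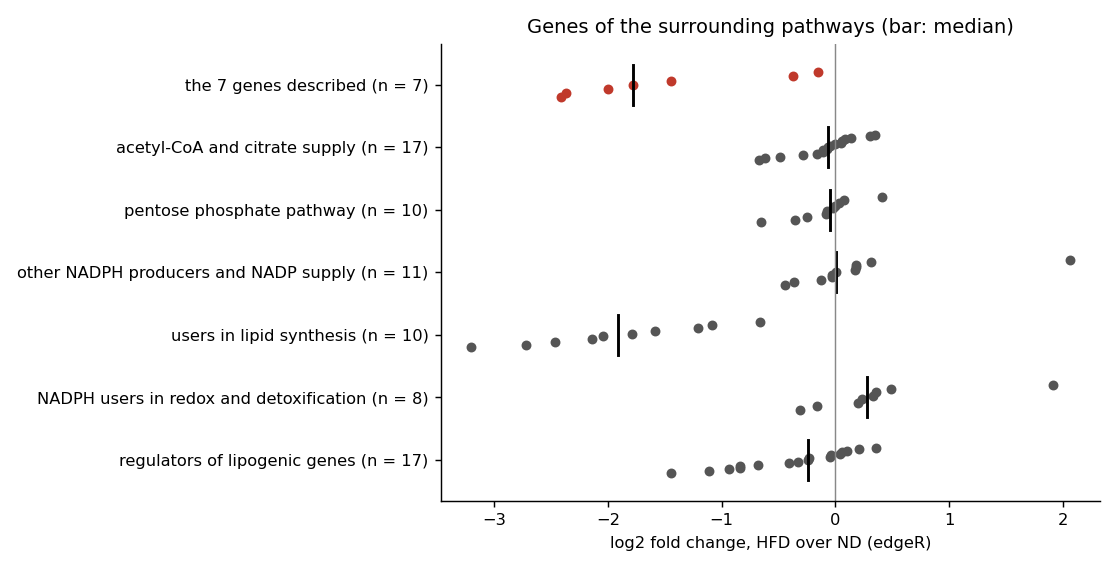
Log2 fold change of HFD over ND (horizontal axis, edgeR) of each tested gene in the set described here and in 6 lists around it, with black bars for the medians. The members (median -1.78) and the users in lipid synthesis (-1.92) lie mostly left of 0, and the other lists have medians between -0.24 and 0.28.

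The genes whose pattern over the 8 libraries was nearest to that of each member were found among 11524 tested genes with a mean of at least 1 FPKM, by the root mean square difference of centred log2 counts scaled by library size. For Acly they were Elovl6 (0.52 log2 units, for 1 of its 2 rows), a fatty acid elongase, then G6pdx (0.607) and Me1 (0.634). For G6pdx they were Acacb (0.356), the mitochondria-associated acetyl-CoA carboxylase, Acss2 (0.364) and the desaturase gene Fads1 (0.375). For Acss2 they were Dhcr7 (0.334), of the last step of cholesterol synthesis, RGD1562948 (0.339) and Tjp3 (0.348), with G6pdx seventh. For Aacs they were RGD1562948 (0.471), Mvd (0.525), of the mevalonate pathway, and G6pdx (0.53). G6pdx was thus among the 3 nearest genes of both Acly and Aacs, and Acss2 among those of G6pdx. The measure includes the difference between the diets and the level of ND-2, so this closeness is not separate from the values above.

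Me1 had a different set of neighbours: Lss (0.451), the lanosterol synthase, the pyruvate dehydrogenase kinase gene Pdk1 (0.455) and Prnp (0.457). For Slc25a1 they were Ano8 (0.065), Apba3 (0.0972) and Akt1 (0.105), and for Idh1 Fam136a (0.0494), Rap1gds1 (0.0622) and Hccs (0.0647). The measure is small for any gene of small spread, so the low values of Slc25a1 and Idh1 go with their flat profiles. Among the other members, Slc25a1 was nearest to Idh1 (0.403), but Idh1 ranked only 6483rd of the 11524 genes for it.

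Long noncoding RNA (lncRNA) transcripts of a separately normalised table overlapped 4 of the 7 genes, and limma called 0 of the 5 of them (0.00505% of 19799 tested transcripts were called lower). No source used here states whether strand was used, so reads of an lncRNA inside a gene and of the gene itself cannot be told apart. Inside Acly lie NONRATT006021.2 (Rnor_6.0 chr10:88433865-88434704) and NONRATT006019.2 (chr10:88400984-88401652). NONRATT006021.2 was at 340, 740.5, 261.5, 572 and 422 FPKM in HFD-1 to HFD-5, against 1967, 3597 and 1223 FPKM in ND-1 to ND-3, with a log2 difference of -2.23 ± 0.39 (SE; adjusted p = 0.278 by limma). NONRATT006019.2 averaged 10.3 ± 5.796 FPKM on the HFD and 85.6 ± 88.7 FPKM on the ND (log2 difference -2.69, adjusted p = 0.512), with ND-2 at 188.1 FPKM. In both, as in Acly, the diets did not overlap and ND-2 was the highest library. Without ND-2 the log2 differences were -1.83 for NONRATT006021.2 and -1.88 for NONRATT006019.2.

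NONRATT007933.2, inside Aacs (chr12:36519278-36519678), was at 1.21 FPKM in HFD-1 and listed at 0 in the other 4 HFD libraries, against 1.22, 2.43 and 1.43 FPKM in ND-1 to ND-3 (adjusted p = 0.805 by limma). NONRATT006746.2 (chr11:87204260-87207274), which overlaps Slc25a1, averaged 197.0 ± 34.55 FPKM on the HFD and 252.9 ± 63.8 FPKM on the ND (log2 difference -0.35, adjusted p = 0.963). NONRATT029462.2 (chr9:71899780-71903782), which overlaps one end of Idh1, averaged 721 ± 121 FPKM on the HFD and 759 ± 46.1 FPKM on the ND (log2 difference -0.09, adjusted p = 0.989). In the transcripts over Slc25a1 and Idh1, as in these genes, the diets overlapped. Without ND-2 the log2 differences were -1.51 for NONRATT007933.2, -0.15 for NONRATT006746.2 and -0.13 for NONRATT029462.2.

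Markers of the cell types a liver sample can hold were read in the same libraries. In bulk tissue, fewer cells of a type and less RNA per cell cannot be told apart. The 8 hepatocyte markers summed to 57700 to 60390 FPKM on the HFD and 54030 to 59090 FPKM on the ND, and none was lower or higher at an unadjusted p under 0.05 (Cyp2e1 had a log2 fold change of 0.58 and Fgb of -0.23). The labelled tissue thus matched its markers. Of 6 adipocyte markers, 3 were tested, 2 higher and 1 lower in fitted value, and the sum was 6.49 to 25.7 FPKM on the HFD and 3.75 to 7.68 FPKM on the ND. Of these, Plin1 and Retn were listed at 0 in all libraries, Adipoq was at 0.7835 ± 0.0587 FPKM on the HFD and 0.985 ± 0.191 FPKM on the ND, and Cidea at 11.9 ± 8.28 FPKM on the HFD and 4.06 ± 1.58 FPKM on the ND. On both diets the sum was made up mostly of Cidea.

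Summed Kupffer cell and macrophage markers (8 of 8 tested) were at 198 to 547.5 FPKM on the HFD and 231 to 327 FPKM on the ND, highest in HFD-3 (log2 fold change 0.34 for Cd68 and -0.34 for Marco). Lymphocyte and neutrophil markers (5 of 8 tested) were at 3.69 to 37.3 FPKM on the HFD and 3.98 to 18.1 FPKM on the ND, again highest in HFD-3 (Ms4a1 -0.65 in log2 fold change). Stellate cell markers (6 of 6) were at 49.0 to 84.7 FPKM on the HFD and 64.6 to 106.4 FPKM on the ND (Lrat -0.25 and Dcn -0.26), and cholangiocyte markers (4 of 5) at 4.46 to 8.06 FPKM on the HFD and 5.65 to 9.95 FPKM on the ND (Epcam -0.57 and Spp1 0.60). Both of these sums were highest in ND-2, the library that was also highest in 6 of the 7 genes. On the ND they were made up mostly of Col3a1 (mean 54.0 FPKM) and Epcam (mean 6.85 FPKM). Single markers went both ways. Without ND-2 the ND mean was higher for Rgs5 (6.2 against 5.04 FPKM), Dcn (4.87 against 4.71) and Sox9 (0.12 against 0.103). It was lower for the other markers of these lists. Endothelial markers (4 of 5) were at 38.5 to 46.5 FPKM on the HFD and 32.9 to 40.7 FPKM on the ND (Clec4g 0.62 and Cdh5 0.24). Erythroid markers (4 of 5) were at 757 to 1350.0 FPKM on the HFD and 468 to 1426 FPKM on the ND (Alas2 0.32 and Hbb 0.27), and the 5 pancreas markers, of which 3 were listed at 0 throughout, summed to 0.0704 to 0.158 FPKM on the HFD and 0.0134 to 0.0636 FPKM on the ND. At an unadjusted p under 0.05 by edgeR, Cidea and Clec4g were higher, and Epcam and 1 lymphocyte or neutrophil marker were lower. Without ND-2, Cidea, Clec4g and Epcam did not reach that p, and 1 adipocyte marker was lower at it. The part of these cell types in the results was not tested.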

How the data were processed

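The data are 5 HFD and 3 ND libraries of rat liver RNA, and each was assigned to its diet by its title. TopHat2 2.0.9, Cufflinks 2.2.1 and Cuffdiff are named, with the build Rnor_6.0, per the submitters' processing notes. These do not say which of them gave which values, and neither the annotation release nor the strand setting is stated in the sources. For each gene the authors deposited a whole-number count and an FPKM value per library, and for each lncRNA transcript an FPKM value. Scaled lncRNA counts and group means in the second table were left out.

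Gene counts were tested with edgeR 4.0.16 in R 4.3.3 (TMM, filterByExpr, quasi-likelihood test, 2-sided), with no covariate. P-values were adjusted by Benjamini-Hochberg over all 14148 tested genes, and an adjusted p under 0.05 counted as passing. The SE of a log2 fold change is its size divided by the square root of the test's F statistic. For lncRNAs, limma 3.58.1 with a trended variance was run on log2(FPKM + 0.5), which understates the change of low transcripts, where at least 3 libraries reached an FPKM of 0.5. Alternatives for genes were DESeq2 1.42.0, limma on log2(FPKM + 1), other scalings and filters, the depth set as a covariate, a replicate block, and each library left out. A fit on the deeper libraries alone was added after seeing the data. The tests were tried on simulated data. Ratios of cytosolic genes to their counterparts used FPKM + 0.1.

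The members and the gene lists were chosen with earlier results of these data known. Of 128 list symbols, 125 were found by name or through RefSeq synonyms (assembly GRCr8). The genes named are the members, the 2 genes of each list with the smallest p, the 3 genes nearest to each member in pattern, the counterparts in other compartments, and up to 2 lncRNAs per member; 1 gene that this rule selects is not reported here. Srebf1, Mlxipl, Plin1, Retn, Col3a1, Rgs5, Sox9 and SNORA18 were named outside this rule after their values were seen.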

Additional observations from a re-analysis of the deposited data

Results flagged for a closer look

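The lncRNA NONRATT007933.2, which lies inside Aacs, was at 1.21 FPKM in HFD-1 and listed at 0 in the other 4 HFD libraries. The distance of HFD-1 from the others made up the whole range of the group. Of 16 HFD groups examined this was the 1 that stood out by Dixon's criterion for 5 samples, and chance flags about 1 in 20 groups. With the other 4 libraries at 0, any value above 0 would have been flagged, so that rate does not hold for this transcript. The ND groups, of 3 libraries each, were not examined this way.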

How the results depend on the processing

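Each of the 7 genes had a lower fitted value on the HFD under all 19 alternatives run. Between the lowest and highest of these, the log2 fold change was -2.74 to -1.63 for Acly, -2.05 to -1.49 for Acss2, -2.80 to -1.02 for Aacs, -0.52 to -0.16 for Slc25a1, -1.78 to -0.51 for Me1, -2.22 to -1.62 for G6pdx and -0.26 to -0.04 for Idh1. The number of the 7 called, 0 in the edgeR test reported, was 5 by DESeq2, 2 with no filter on low counts (Acss2 and G6pdx), 2 with the depth set as a covariate, and 0 to 1 when each library was left out, with Acss2 called without ND-1. Over all genes edgeR called 1; the count was 18 with no filter, 137 by DESeq2 (69 higher and 68 lower), 0 by limma, 5 with the depth covariate, 0 in the deeper set alone, and 0 to 9 when each library was left out. The cause of these differences was not tested. Replicate numbers are shared between the diets. Same-numbered libraries deviated with correlations of 0.19, -0.17 and -0.11, and differently numbered ones with -0.15 to 0.22. These are deviations from means of 3 libraries, so they cannot decide whether the numbers pair samples. With a replicate block on the 6 libraries numbered 1 to 3, edgeR called 7 genes and 1 of the members (Acly, adjusted p = 0.0433), and without the replicate block on the same 6 it called 5 and 0. For lncRNAs, 2 were called in all, 0 with the replicate block and 0 to 3 when each library was left out, and 0 of the 5 that overlap a member in every alternative. The log2 difference of NONRATT029462.2 turned to 0.031 in the 6 libraries both with and without the block. A library with few counts limits Aacs most, which had 24 counts in its lowest library.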
